A study of Canis lupus familiaris with 6 samples.

Results

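Cadherins are the calcium-dependent adhesion receptors that join neighbouring cells, and catenins are the proteins that couple their cytoplasmic tails to actin. Beta-catenin and alpha-catenin link the classical cadherins to the cytoskeleton, p120-catenin keeps them at the membrane, and beta-catenin that escapes degradation also enters the nucleus as a coactivator of Wnt target genes. In kidney tubules E-cadherin (CDH1), K-cadherin (CDH6) and Ksp-cadherin (CDH16) mark the lateral membranes of different segments, while protocadherins, cadherin-related proteins and the giant FAT and Dachsous cadherins serve in microvilli, sensory bundles, neurons and planar polarity. The family was taken here as every probe set with a single gene symbol that begins CDH, PCDH or CDHR and a digit, PCDHA, PCDHB or PCDHG, or CTNNA, CTNNB or CTNND, together with FAT1 to FAT4, DCHS1 and DCHS2. This gave 102 of 42924 probe sets, for 48 of 15115 named genes, and 20 of the 48 genes had 1 probe set. The symbol rule also admits CTNNAL1 and CTNNBL1, which carry the name but are no adherens junction catenins, and leaves out JUP, the desmosomal cadherins and every probe set with no symbol.

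The cells were MDCKII, an established dog kidney epithelial line, so the results describe 1 line. In the 3D group (3 arrays) cells grew with Matrigel, a mouse tumour basement membrane extract, spread thinly on the dish and added to the medium, and formed cysts. In the 2D group (3 arrays) they formed a polarized monolayer on plastic. RNA of both groups was taken 36 h after plating, and the labels call the replicates biological.

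The arrays of replicates 2 and 3 shared a log2 scale, with medians of 7.06 to 7.08 over all probe sets, whereas the replicate 1 arrays had medians of 5.26 in 3D and 5.42 in 2D and held values below 0. Tests were therefore made on replicates 2 and 3, with n = 2 per group, and the replicate 1 pair gives an untested difference on its own scale. Among 10 measured kidney epithelial markers 8 lay in the brightest quartile of all probe sets, as did VIM of the fibroblast list and TUBB3 of the neuronal list. On replicates 2 and 3 the summed log2 level of the kidney list was 108.65 to 109.57 on the 3D arrays and 109.71 to 110.21 on the 2D arrays. These sums were lower in 3D without overlap. The leukocyte list (6 genes) summed to 40.15 and 40.44 in 3D and to 39.14 and 39.30 in 2D. Its largest differences were those of CD14 (0.34, limma adjusted p = 0.158) and CD3E (0.335, limma adjusted p = 0.139). PTPRC, in the second quartile by its mean over these arrays, differed by 0.13. The fibroblast list (67.62 to 68.03 in 3D, 67.78 to 68.40 in 2D), the endothelial list (39.26 to 39.56 in 3D, 39.10 to 39.46 in 2D) and the neuronal list (32.32 to 32.66 in 3D, 32.49 to 32.54 in 2D) overlapped between groups. Of the 37 marker genes, 0 passed in limma and 3 reached an unadjusted p under 0.05. Poly-A spike-in controls averaged 9.83 and 8.98 on the 3D arrays, against 8.81 and 8.86 on the 2D arrays of replicates 2 and 3. Of 5 pairs of 3′ and 5′ probe sets for actin and GAPDH, which track RNA integrity, the excess of 3′ over 5′ signal was larger in 3D without overlap for 2 and smaller for 1. As log2 differences on replicates 2 and 3, an actin pair gave 0.10 and 0.32 in 3D and -0.07 and -0.02 in 2D, a GAPDH pair 0.31 and 0.40 in 3D and 0.20 and 0.16 in 2D, and another actin pair 1.80 and 1.79 in 3D and 1.90 and 2.07 in 2D. The part of these shifts in the results below was not tested.

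The members called between cysts and monolayers were beta-catenin, a 7D cadherin and a kidney cadherin. CTNNB1 was higher in 3D on both of its probe sets, CDH17 was higher on its only probe set, and CDH6 was lower on 1 of its 4. The other 45 genes had no probe set past the threshold of a limma adjusted p under 0.05. In all, 3 member probe sets were higher and 1 was lower, or 3.92% of 102. Over all probe sets 6.61% were called, 3.65% higher and 2.96% lower. The gap between these shares was not tested, and 74 of the 102 members lay under the median brightness. In the dimmest quartile 0.821% of all probe sets were called and 0 of 39 members, and in the brightest quartile 13.7% of all probe sets and 3 of 14 members (21.4%).

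The calls rest on all 4 arrays together. Without any 1 of them 0 of the 102 members and 0 of all probe sets passed in limma, with 7 to 18 members and 4683 to 10892 probe sets at an unadjusted p under 0.05. For the 4 called member probe sets, the limma adjusted p was 0.180 to 0.181 without 3D replicate 2, 0.0928 to 0.109 without 3D replicate 3, 0.415 to 0.437 without 2D replicate 2 and 0.421 to 0.442 without 2D replicate 3. On each of these 4 probe sets the groups did not overlap, so leaving out 1 array could not reverse the difference. Replicate 1 had the same sign on all 4, as on 73.9% of all called probe sets. The arrays measure transcript per unit of RNA, so that a change in how many cells carry a transcript and a change in each cell cannot be told apart.

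**Figure D1:**
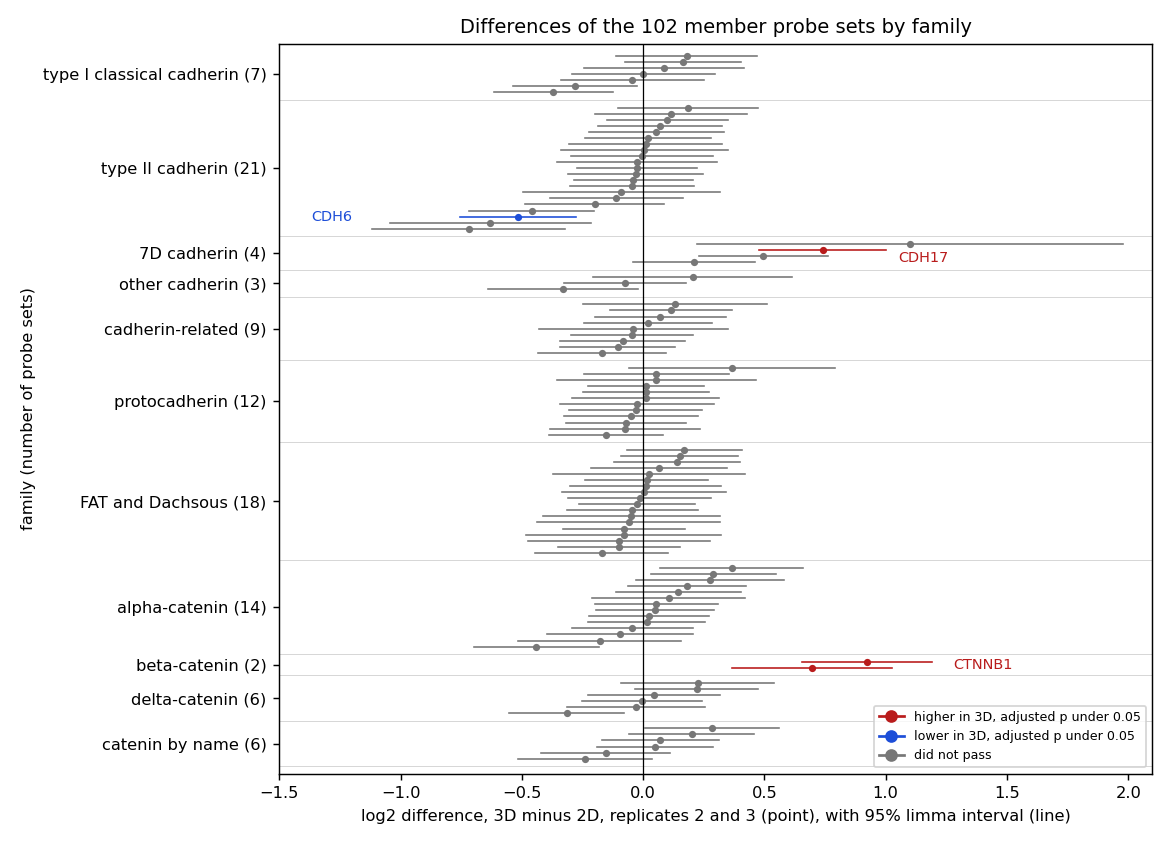
Each point is the log2 difference of a member probe set, 3D minus 2D, on replicates 2 and 3 (2 arrays per group), with its 95% limma interval, grouped by family and sorted within it. The 2 CTNNB1 probe sets and CDH17 lie to the right of 0 and CDH6 to the left, while most families centre on 0.

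CTNNB1, which encodes beta-catenin, stood at 13.12 and 13.45 in 3D, against 12.59 and 12.59 in 2D on 1 probe set. On the other it stood at 13.18 and 13.09 in 3D and at 12.13 and 12.29 in 2D. Both 3D arrays lay above both 2D arrays on each probe set, as on 25.1% of all probe sets. The rise was 1.62-fold on the first (log2 difference 0.695, SE 0.135, 95% interval 0.365 to 1.025, limma adjusted p = 0.0402) and 1.90-fold on the second (0.925, SE 0.110, 95% interval 0.657 to 1.193, limma adjusted p = 0.0133). As the mean of the 2 probe sets the difference was 0.81 (SE 0.0960, limma adjusted p = 0.0115). Replicate 1 gave 11.57 in 3D and 10.60 in 2D on the first probe set, and 10.95 in 3D and 9.88 in 2D on the second. The replicate 1 differences of 0.97 and 1.07 had the same sign as those of the other arrays, and their size is on another scale.

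Alpha-catenin binds beta-catenin and actin, and its epithelial form is CTNNA1. On its 3 probe sets the 3D arrays read 12.80 and 12.65, 11.92 and 11.66, and 11.31 and 11.10, against 2D arrays at 12.44 and 12.43, 11.47 and 11.56, and 10.77 and 10.91. The 3D values lay above the 2D values on each, as on 25.1% of all probe sets, with log2 differences of 0.29, 0.275 and 0.365. None passed (limma adjusted p = 0.137 to 0.256). Replicate 1 had the opposite sign on all 3, with differences of -0.54, -0.42 and -0.17. The neural form CTNNA2 (4 probe sets) differed by -0.045 to 0.145 and the heart and testis form CTNNA3 (7 probe sets) by -0.44 to 0.18, with none called. One CTNNA3 probe set came near the threshold at -0.44 (limma adjusted p = 0.0664), with 4.71 and 4.84 in 3D and 5.25 and 5.18 in 2D, all in the dimmest quartile, and a replicate 1 difference of 0.10.

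CTNND1 encodes p120-catenin. One of its probe sets read 6.89 and 6.86 in 3D and 7.17 and 7.21 in 2D, a difference of -0.315 (95% interval -0.553 to -0.077, limma adjusted p = 0.118). The other read 8.37 and 8.14 in 3D and 8.27 and 8.30 in 2D, a difference of -0.03. The replicate 1 differences were -0.83 and -0.81. The neural delta-catenin gene CTNND2 (4 probe sets) ranged from -0.005 to 0.225. CTNNAL1, which encodes the alpha-catenin relative alpha-catulin, was above 2D on all 3 probe sets without passing, at most by 0.285 (limma adjusted p = 0.202), with 10.19 and 10.31 in 3D and 10.05 and 9.88 in 2D there, and was above 2D in replicate 1 as well, by 0.40 to 2.55. CTNNBL1, a spliceosome-associated protein, ranged from -0.24 to 0.05. The rise past the threshold among the catenin genes of the symbol rule, CTNNAL1 and CTNNBL1 included, was thus that of CTNNB1 alone of 8. Whether this rise differs from the changes of CTNNA1 and CTNND1 was not tested. JUP, which the rule leaves out, differed by 0.495 on the brightest of its 3 probe sets (95% interval 0.179 to 0.811, limma adjusted p = 0.081). Its replicate 1 difference was -0.73.

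**Figure D2:**
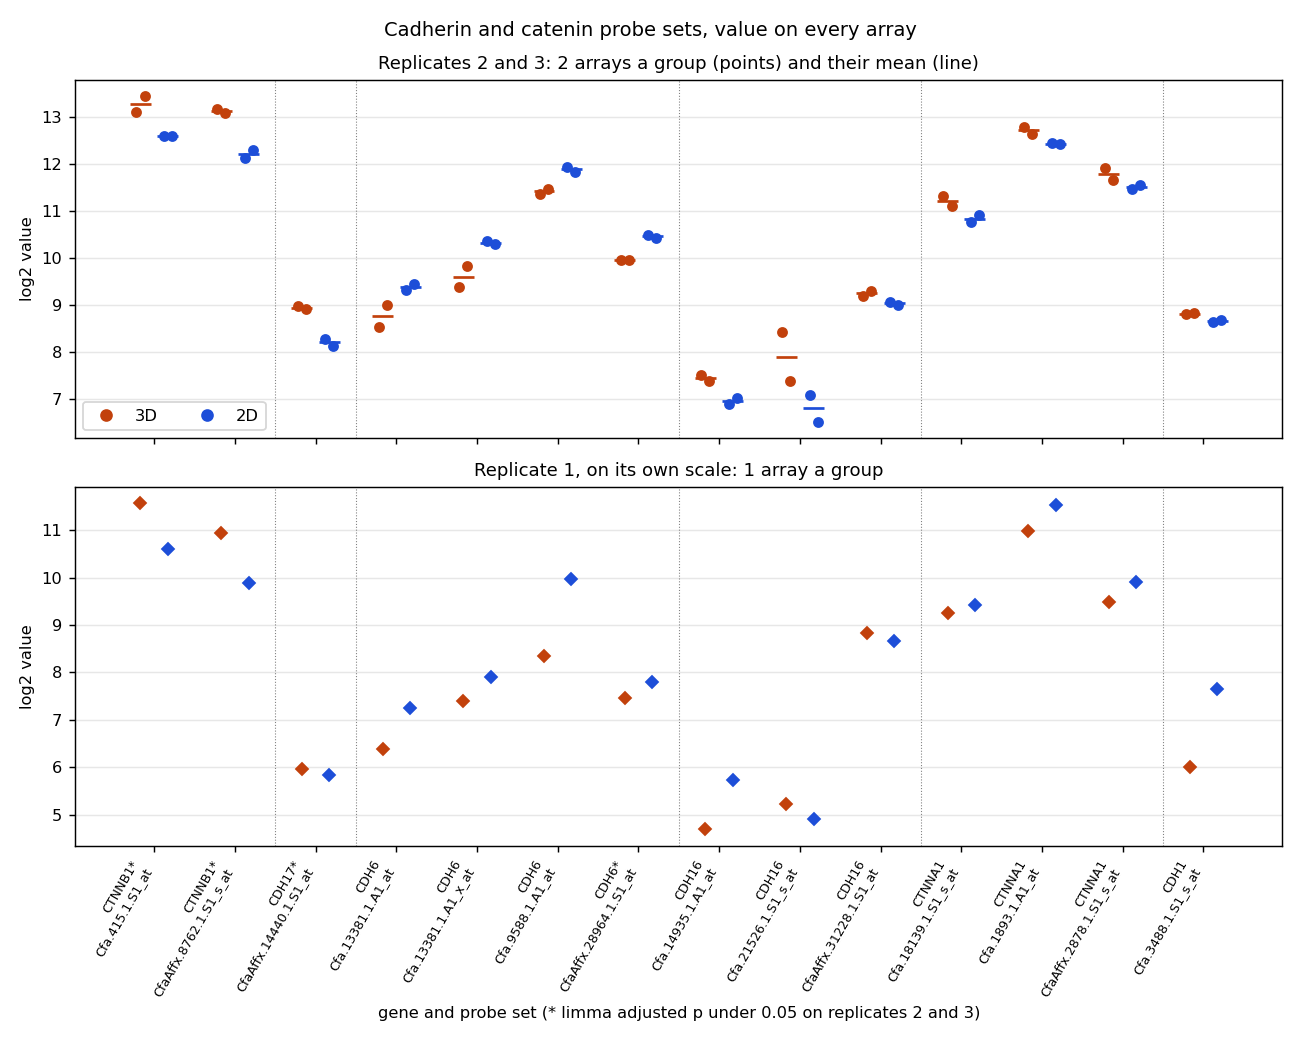
The upper panel gives the log2 value on each array of replicates 2 and 3 (points) and the group mean (line) for probe sets of CTNNB1, CDH17, CDH6, CDH16, CTNNA1 and CDH1, with 3D left of 2D. The lower panel gives the replicate 1 arrays on their own scale, where CTNNB1 is again higher in 3D and all 4 CDH6 probe sets are lower in 3D, while CTNNA1 and CDH1 lie lower in 3D.

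CDH17 and CDH16 are the 7D cadherins, which carry 7 extracellular repeats and a short tail that does not bind catenins. CDH17, or liver-intestine cadherin, read 8.98 and 8.91 in 3D, against 8.28 and 8.13 in 2D. It was 1.67-fold higher in 3D (log2 difference 0.74, SE 0.107, 95% interval 0.478 to 1.002, limma adjusted p = 0.0199). In replicate 1 it read 5.96 in 3D and 5.84 in 2D, a difference of 0.12.

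CDH16, the kidney-specific Ksp-cadherin, did not pass on any of its 3 probe sets. Both 3D arrays exceeded both 2D arrays on each, as on 25.1% of all probe sets. The probe set nearest the threshold read 7.51 and 7.39 in 3D and 6.89 and 7.02 in 2D (log2 difference 0.495, SE 0.109, limma adjusted p = 0.0541, and 0.0498 when the dimmest quartile was left out). The member probe set with the largest difference of all was also one of CDH16, with 8.43 and 7.37 in 3D and 7.09 and 6.51 in 2D. Its difference of 1.10 had a wide 95% interval of 0.221 to 1.979 and a limma adjusted p = 0.135, and the arrays within each group lay far apart. The last, with 9.19 and 9.30 in 3D and 9.07 and 9.0 in 2D, differed by 0.21. The mean of the 3 probe sets differed by 0.602 (95% interval 0.254 to 0.950, limma adjusted p = 0.0600), and the replicate 1 differences were -1.05, 0.32 and 0.17 in the same order.

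CDH6, or K-cadherin, a type II cadherin of the developing and proximal tubule, lay lower in 3D on all 4 of its probe sets. The one that passed read 9.95 and 9.95 in 3D, against 10.50 and 10.43 in 2D, and was 1.43-fold lower (log2 difference -0.515, SE 0.0984, 95% interval -0.755 to -0.275, limma adjusted p = 0.0383). This call was lost with trend and robust priors (limma adjusted p = 0.0594). The brightest CDH6 probe set read 11.37 and 11.48 in 3D and 11.94 and 11.83 in 2D (-0.46, limma adjusted p = 0.0609). The remaining pair carries the same transcript identifier and read 9.38 and 9.83 in 3D against 10.36 and 10.29 in 2D (-0.72, limma adjusted p = 0.0574), and 8.52 and 8.99 in 3D against 9.32 and 9.45 in 2D (-0.63, limma adjusted p = 0.0871). No 3D array reached a 2D array on any of the 4, and 26.7% of all probe sets were likewise lower without overlap. As their mean CDH6 fell by 0.581 on the log2 scale (SE 0.114, limma adjusted p = 0.0374), and the replicate 1 differences ran from -1.63 to -0.32.

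The type I cadherins did not pass. E-cadherin, CDH1, the main adhesion receptor of MDCK monolayers, read 8.80 and 8.83 in 3D and 8.63 and 8.67 in 2D on its only probe set. The difference of 0.165 had a 95% interval of -0.073 to 0.403 (limma adjusted p = 0.382), and replicate 1 went the other way, with 6.0 in 3D and 7.65 in 2D. P-cadherin, CDH3, had 3 probe sets with differences of -0.37 (95% interval -0.616 to -0.124, limma adjusted p = 0.0890), 0.00 and 0.18. The first of these read 6.71 and 6.66 in 3D and 7.10 and 7.01 in 2D, and 3.15 in 3D against 6.96 in 2D in replicate 1. N-cadherin, CDH2, read 6.35 and 6.49 in 3D and 6.71 and 6.69 in 2D on 1 probe set (-0.28, limma adjusted p = 0.178), and differed by 0.085 on the other. M-cadherin of muscle, CDH15, differed by -0.045.

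Apart from CDH6, the type II cadherins stayed within -0.20 and 0.185 on replicates 2 and 3. They included VE-cadherin of endothelium, CDH5, with 4 probe sets between -0.025 and 0.07, and OB-cadherin of mesenchyme, CDH11, at -0.045 and -0.005 with both probe sets in the dimmest quartile. The neural and other type II genes CDH7 to CDH10, CDH12, CDH18 to CDH20, CDH22 and CDH24 did not pass either. The lipid-anchored T-cadherin, CDH13, read 6.80 and 6.84 in 3D and 7.01 and 7.29 in 2D on 1 probe set (-0.33, limma adjusted p = 0.186), and differed by 0.205 on a dim one. CDH26 differed by -0.075.

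The 8 protocadherin genes (12 probe sets) gave 0 calls in limma, with differences of -0.155 to 0.365 and 0 unadjusted p under 0.05. PCDH1, a protocadherin of epithelia, differed by -0.05 and 0.01, and PCDH7 by -0.03. The widest range was that of PCDH15, known from the tip links of hair cells, at -0.155 and 0.365 on its 2 probe sets. The FAT and Dachsous genes gave 0 calls on 18 probe sets, with differences of -0.17 to 0.17 and 0 unadjusted p under 0.05. Over all probe sets 6.61% were called, and 10072 of 42924 had an unadjusted p under 0.05. The share called was 0.821% in the dimmest quartile and 3.08% in the second. These quartiles held 5 and 6 of the 12 protocadherin probe sets, and 7 and 9 of the 18 of FAT and Dachsous genes. FAT1, an atypical cadherin of cell edges and podocytes, lay between -0.10 and 0.01 on 5 probe sets, and its brightest read 8.53 and 8.15 in 3D and 8.49 and 8.31 in 2D. FAT4 (-0.015 and 0.17) and its ligand DCHS1 (0.065 and -0.17) did not pass. Of the 98 member probe sets that did not pass, 95 had a 95% interval that lay inside a 2-fold difference either way. The 3 whose interval reached further belonged to CDH16 (1) and CDH6 (2). The 95 include all 39 members of the dimmest quartile, and no detection calls are given. For such dim probe sets the interval bounds the array value and may not bound the transcript.

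Cadherin-related proteins include CDHR2 and CDHR5, the protocadherins that tie the tips of brush border microvilli together. CDHR2 read 6.42 and 6.58 in 3D and 6.38 and 6.48 in 2D on 1 probe set, and 6.13 and 6.25 in 3D and 6.21 and 6.26 in 2D on the other. CDHR5 read 7.74 and 7.84 in 3D and 7.93 and 7.82 in 2D. The differences of 0.07, -0.045 and -0.085 did not pass, and the groups overlapped on each. The replicate 1 differences were -0.6, -2.12 and -0.15 in the same order. CDHR1 of photoreceptors (-0.17), CDHR3 (-0.105 to 0.13) and CDHR4 (0.02 and 0.115) did not pass either.

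Some partners of CDHR2 and CDHR5 were higher in 3D. A list of microvillar protocadherin partners was examined that also holds related genes such as PDZK1, outside the core complex. Of its 11 measured genes 5 were higher and 0 lower in 3D, with a median difference of 0.49. Over all genes 7.29% were called, 4.20% higher and 3.09% lower, with a median of -0.01. The list was compiled with the large rise of PDZK1, 1 of the 5, already known, so its count is no independent evidence. By the mean of each gene's probe sets 3 of the 11 were higher (ANKS4B, CALML4 and PDZK1), against 7.63% of all genes called in either direction. CALML4, a light chain of the myosin MYO7B, read 10.56 and 10.24 in 3D and 9.09 and 9.06 in 2D, a 2.51-fold rise (limma adjusted p = 0.0102), and all 3 of its probe sets passed. ANKS4B, a scaffold of the complex, read 10.23 and 10.16 in 3D and 9.62 and 9.60 in 2D, a 1.5-fold rise (limma adjusted p = 0.0288). USH1C, which encodes harmonin, read 9.99 and 9.15 in 3D and 7.99 and 7.61 in 2D, a 3.41-fold rise (limma adjusted p = 0.0249) on 1 of 3 probe sets, whose mean missed the threshold (limma adjusted p = 0.0534).

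The scaffold PDZK1, a brush border protein outside the core complex, read 11.02 and 11.23 in 3D against 7.17 and 7.53 in 2D (13.7-fold, limma adjusted p = 0.00145). EPS8, an actin-capping protein of microvillus tips, was 1.4-fold higher on 1 of 2 probe sets (limma adjusted p = 0.0432) and differed by 0.105 as their mean (limma adjusted p = 0.658). MYO7B itself read 6.89 and 6.24 in 3D and 6.02 and 5.76 in 2D and did not pass (0.675, limma adjusted p = 0.137). In replicate 1 CALML4, ANKS4B, USH1C and PDZK1 were higher in 3D by 0.77 to 3.93, while the 2 EPS8 probe sets differed by 0.17 and -0.36. Whether the genes of this list differ from the protocadherins was not tested.

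**Figure D3:**
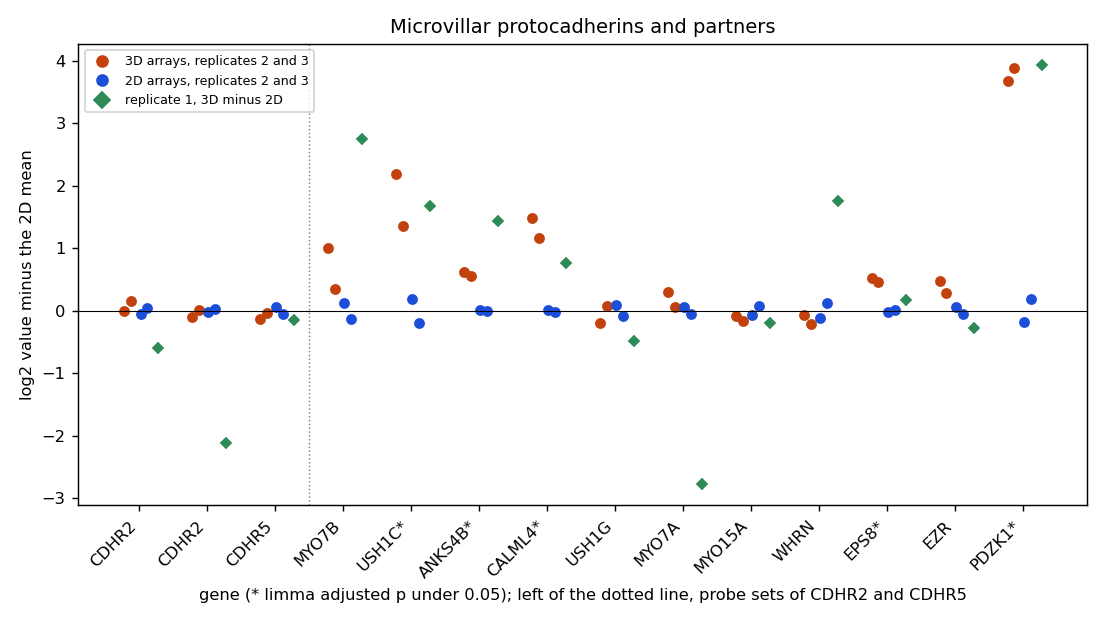
Log2 values on replicates 2 and 3, set relative to the 2D mean of each probe set, with the replicate 1 difference as a diamond. CDHR2 and CDHR5 are left of the dotted line, and the 11 genes of the list of partners and related genes are right of it. The 3D points of USH1C, ANKS4B, CALML4, EPS8 and PDZK1 lie above 0, and those of CDHR2 and CDHR5 lie near it.

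Other genes around the junction were examined in lists, each gene by its probe set of highest mean level across the 6 arrays, by which 7.29% of all genes were called, 4.20% higher and 3.09% lower. Among 25 adherens junction partners 1 was higher and 2 were lower (median 0.03). LIMA1, an actin-binding partner of alpha-catenin, read 11.79 and 11.68 in 3D and 11.04 and 11 in 2D (1.64-fold higher, limma adjusted p = 0.0190). ACTN1, which encodes alpha-actinin, read 8.69 and 8.57 in 3D and 9.35 and 9.45 in 2D (-0.77, limma adjusted p = 0.0175). Another ACTN1 probe set was lower too (-0.73, limma adjusted p = 0.029), and the last differed by -0.03 (limma adjusted p = 0.907). Their mean differed by -0.51 (limma adjusted p = 0.0323). AJUBA, a LIM protein recruited to junctions, read 9.33 and 9.61 in 3D and 10.34 and 10.59 in 2D (-0.995, limma adjusted p = 0.0199). PKP4, a p120-catenin relative, is counted as not called (0.325, limma adjusted p = 0.114), and 1 of its other 5 probe sets was higher (0.585, limma adjusted p = 0.0421). Of 12 desmosomal genes 1 was higher and 1 was lower (median -0.078). PERP, a desmosomal membrane protein, differed by 0.64 (limma adjusted p = 0.0331, and 0.0620 as the mean of its 3 probe sets), and the desmosomal cadherin DSG3 by -1.81 (limma adjusted p = 0.0388). None of 15 genes of cadherin cleavage and endocytosis passed (median 0.04), and the brightest, RAB11A of the recycling endosome, differed by 0.31 (limma adjusted p = 0.120). By the same probe set per gene, 0 of 19 repressors of CDH1 and other factors of epithelial and mesenchymal state passed (median -0.045), and the brightest, ELF3, differed by 0.35 (limma adjusted p = 0.384). The CDH1 repressor ZEB1 differed by 0.02 there, while 1 of its other 4 probe sets, in the dimmest quartile, read 4.1 and 4.13 in 3D and 4.74 and 4.72 in 2D (-0.615, limma adjusted p = 0.0244) and differed by 0.81 in replicate 1. The list's largest differences were those of SNAI2 and KLF4. SNAI2, a CDH1 repressor in the brightest quartile, differed by -0.785 (95% interval -1.349 to -0.221, limma adjusted p = 0.106), and by -1.16 in replicate 1. KLF4 differed by 0.725 (95% interval 0.16 to 1.29, limma adjusted p = 0.127), and by -2.09 in replicate 1.

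For beta-catenin as a signalling protein, 0 of 25 genes of its destruction complex and nuclear partners passed in limma (median -0.05). The brightest, the kinase gene CSNK1A1, read 12.72 and 12.76 in 3D and 12.91 and 12.82 in 2D (-0.125). Among 24 genes known as beta-catenin targets, 0 were higher and 2 were lower (median -0.035), against 7.29% of all genes called. MYC read 9.77 and 9.97 in 3D against 10.97 and 11.11 in 2D (-1.17, limma adjusted p = 0.0104), and BMP4 8.25 and 8.39 in 3D against 10.05 and 10.13 in 2D (-1.77, limma adjusted p = 0.00382). CCND1, which encodes cyclin D1, read 10.14 and 10.35 in 3D and 10.6 and 10.83 in 2D on the probe set that stands for it (-0.47, limma adjusted p = 0.0947), and its other probe set was lower (-0.90, limma adjusted p = 0.0207). AXIN2, a feedback inhibitor of the pathway, gave differing answers over its 6 probe sets. The one that stands for it in the list read 8.03 and 8.0 in 3D and 8.35 and 8.29 in 2D (-0.305, limma adjusted p = 0.130). Another, in the dimmest quartile by its mean over the 4 arrays, read 7.01 and 6.5 in 3D and 4.38 and 4.57 in 2D. It was higher in 3D (2.28, limma adjusted p = 0.00654) and differed by 1.0 in replicate 1. The other 4 ranged from -0.165 to 0.09 without passing, and the 6 replicate 1 differences ran from -0.57 to 1.99. Of 19 genes of FAT, Dachsous and planar polarity function, 1 was lower (median -0.085). This was FRMD6, in the dimmest quartile, with 5.18 and 5.32 in 3D and 5.94 and 5.76 in 2D (-0.60, limma adjusted p = 0.0401).

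On replicates 2 and 3 the groups did not overlap for 42 of the 102 members (41.2%, 25 higher and 17 lower in 3D), against 51.8% of all probe sets, 25.1% higher and 26.7% lower. The median member difference was 0.008, and -0.005 over all probe sets. In replicate 1, 41 members differed by at least 1 on the log2 scale (40.2%, 11 higher and 30 lower in 3D), against 34.0% of all probe sets, 14.3% higher and 19.7% lower. The median replicate 1 difference was -0.505 for members and -0.14 for all probe sets, and 55 members had the same sign there as on the other arrays. The widest replicate 1 gaps belonged to probe sets with values near or below the lower quartiles of those arrays (3.38 in 3D and 3.52 in 2D) on 1 side. FAT4 read -0.51 in 3D and 4.66 in 2D, CTNNA3 0.49 in 3D and 5.11 in 2D, FAT1 2.56 in 3D and 7.14 in 2D, and CDHR1 4.47 in 3D and 0.38 in 2D, while these same probe sets differed by at most 0.17 in size on replicates 2 and 3. In the dimmest quartile 50.5% of all probe sets differed by at least 1 in replicate 1, against 17.6% in the brightest quartile.

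**Figure D4:**
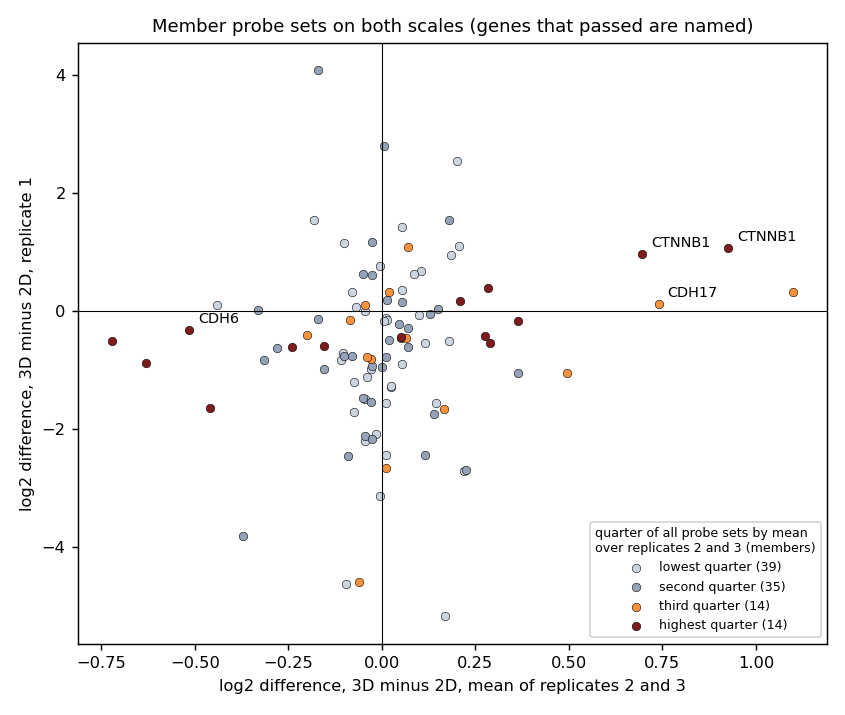
Each point is a member probe set, with its log2 difference (3D minus 2D) on replicates 2 and 3 on the horizontal axis and in replicate 1 on the vertical axis, coloured by the quartile of all probe sets in which its mean over replicates 2 and 3 lies. Dim members spread widely on the vertical axis around a horizontal value of 0, and the 2 CTNNB1 points lie apart at the upper right.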

How the data were processed

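Canine Affymetrix arrays were read from the deposited table of log2 values. Per the submitters' processing notes, RMA and limma were used by the authors. How the replicate 1 columns were made is also among the steps not given in the sources used here, as are versions and the probe set definition. Of 43035 probe sets, 111 controls were left out, and genes were named from the platform annotation. Identifiers of 91 of the 102 members were found in the RefSeq gene table of assembly UU_Cfam_GSD_1.0, used for names only. No build is named, so no positions are given.

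3D minus 2D was fitted to the 4 arrays of replicates 2 and 3 with lmFit and eBayes (limma 3.58.1, R 4.3.3), two-sided, with no filter on level, and adjusted by Benjamini-Hochberg over 42924 probe sets at 0.05. Intervals are limma's. Brightness quartiles use the mean over these 4 arrays and set no level of 1 probe set against another as transcript amount. The number of arrays limits the precision. The fit was tested on simulated data with changes larger than most of those reported. Tables and plots used Python 3.11.15 with pandas 2.3.3 and matplotlib 3.10.9.

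Members, lists and tests were chosen with earlier results of these data known. Named were every member probe set that passed with the others of its gene, 22 of 24 preset genes (CDH4 and CTNNBIP1 were not analysed here), the 5 next smallest adjusted p, members with a difference of 1 or more, summarized in replicate 1 with examples chosen after their values were seen, and up to 6 called genes per list, or the brightest with none called. AXIN2, CCND1, PKP4 and ZEB1 were added after their values were seen, because another of their probe sets passed. Also added after their values were seen were SNAI2 and KLF4, with the largest differences of their list, and JUP, which the symbol rule leaves out.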

Additional observations from a re-analysis of the deposited data

How the results depend on the processing

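With 2 arrays per group the calls depend on the fit. The count of called member probe sets (4) stayed within 1.5 times with median centring (4), trend and robust priors (3) and without the dimmest quartile (5). In that order these fits called 2713, 2433 and 3006 of all probe sets. As genes by their mean the member count was 3 of 48 (CTNNB1, CDH17 and CDH6), against 7.63% of all genes called. As genes by the probe set with the highest mean the member count was 2 of 48, against 7.29% of all genes. It fell to 0 with the replicate block, with all 6 arrays, with all 6 arrays and the replicate block, and with all 6 arrays quantile normalized, with or without the block, with 13, 0, 5, 1 and 7 members at an unadjusted limma p under 0.05, in the order block, 6 arrays, 6 arrays with block, quantile, quantile with block. Over all probe sets (2837) the same 5 fits gave 0, 0, 0, 2 and 0 calls in limma, with 8325, 105, 2723, 1775 and 3517 at an unadjusted p under 0.05. For the 13 called genes of the partner lists they gave 0 each, with 36, 1, 14, 14 and 18 at an unadjusted p under 0.05. Leaving out 1 array in turn gave 0 to 0 calls for each of these 3 counts. Same-numbered arrays of replicates 2 and 3 did not deviate together (r = 0.001 over probe sets), so the numbers were not taken as pairs. The 4 called member probe sets kept their direction in all 12 alternatives, though many of these could not have changed it. On the 4 arrays, the replicate block, the other priors and the filter on level leave the difference itself unchanged. Leaving out 1 array cannot reverse groups that do not overlap, and the 6-array fits add a replicate 1 pair of the same sign. The median replicate 1 difference of the members was -0.345 after median centring and -0.395 after quantile normalization of that pair. The table carries no detection calls, and 39 members lie in the dimmest quartile.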
